A study of Oryctolagus cuniculus with 6 samples.

Results

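Collagen chains that build the matrix around and between the collagen fibrils of the artery wall were followed in smooth muscle cells of the rabbit basilar artery after a rise in blood flow. The chains were COL6A1, COL6A2 and COL6A3 of collagen VI, COL8A1 of collagen VIII, COL12A1 of collagen XII, COL14A1 of collagen XIV and COL15A1 of collagen XV. A probe was taken when its gene name was 1 of these chains, or when its description named that collagen type and chain. This gave 12 of the 43603 probes on the array, for 5 of the 7 chains. COL6A1, COL8A1 and COL14A1 had 1 probe each, COL12A1 had 4 and COL15A1 had 5. COL6A2 and COL6A3 had none, so collagen VI is read here through its alpha 1 chain alone.

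The animals were female New Zealand White rabbits. In the ligated group (3 arrays) the common carotid arteries were tied on both sides, which raises flow through the basilar artery. In the sham group (3 arrays) the same arteries were exposed but not tied, and both groups were killed on day 5. The whole basilar artery was perfused with elastase and collagenase, its cells were released by trituration, and no sorting step is described, so the preparation may hold every cell type that the digestion frees. RNA was read on one-colour rabbit oligonucleotide arrays, 1 array per sample. The labels count 3 rabbits in each group but do not state that an array stands for 1 animal, and p-values then measure only the spread between these preparations, which may be technical.

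Collagen VI assembles from different alpha chains into beaded microfilaments that lie close to cells and link them to the fibrillar matrix. Collagens XII and XIV are fibril-associated collagens with interrupted triple helices, which sit on the surface of collagen I fibrils. Collagen XV is a multiplexin, a collagen with many interruptions that is found next to basement membranes, and collagen VIII is a short-chain, network-forming collagen made by vascular smooth muscle and endothelium. Only collagens XII and XIV of these are therefore fibril-associated in the strict sense.

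Each probe is an oligonucleotide of 60 bases printed on the glass, and the sequences show which stretch of each message was read. The probes of the chains with a single probe are given first, because each of those results rests on 1 sequence. They are written 5′ to 3′ as deposited, in lower case:
COL6A1 (A_04_P006621): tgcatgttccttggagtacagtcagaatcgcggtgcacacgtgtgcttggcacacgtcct
COL8A1 (A_04_P001586): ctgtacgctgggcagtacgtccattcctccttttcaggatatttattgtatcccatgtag
COL14A1 (A_04_P095477): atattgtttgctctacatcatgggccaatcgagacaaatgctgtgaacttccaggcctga

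The COL12A1 probes did not move alike, so all of them are shown. The first 3 lie together within 899 bases, and the last lies 49.7 kb away, downstream in the direction of transcription:
COL12A1 (A_04_P016688): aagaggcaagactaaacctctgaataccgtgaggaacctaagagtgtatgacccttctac
COL12A1 (A_04_P016687): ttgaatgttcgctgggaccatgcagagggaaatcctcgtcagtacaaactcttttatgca
COL12A1 (A_04_P016686): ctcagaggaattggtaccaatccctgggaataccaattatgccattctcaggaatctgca
COL12A1 (A_04_P077377): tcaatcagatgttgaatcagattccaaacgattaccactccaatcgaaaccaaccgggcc

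The COL15A1 probes are shifted copies of each other. The outermost pair is shown, with the 56 bases that all 5 share in capitals:
COL15A1 (A_04_P099406): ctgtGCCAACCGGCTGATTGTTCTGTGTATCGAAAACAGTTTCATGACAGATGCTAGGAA
COL15A1 (A_04_P099402): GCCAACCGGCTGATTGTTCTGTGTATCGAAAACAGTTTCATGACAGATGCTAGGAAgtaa

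These 5 probes are thus repeated readings of 1 site and not 5 measurements of the gene. No member probe shared 20 or more bases, on either strand, with a probe of another gene on the array. On oryCun2, the build of the array files, the COL8A1 probe lies at chr14:120915235-120915294 on the minus strand and the COL15A1 tile covers chr1:14170962-14171025 on the minus strand. The clustered COL12A1 probes lie between chr12:62015106-62016004 and the distant one at chr12:61965394-61965453, all on the minus strand. The COL14A1 probe is placed at chr3:136126328-136130344 on the plus strand, a stretch of 4017 bases for a probe of 60, whereas the COL6A1 probe is listed as unmapped. The distant COL12A1 probe is listed under 3 Ensembl transcripts and each clustered probe under 2. Gene models of this build were not used here, so exons and untranslated regions are not assigned.

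The following facts hold for all results. Each group had a slide of its own (slide 1 sham, slide 2 ligated), and the effect of the slide cannot be told apart from that of ligation. Sham 2 and sham 3 resembled each other most, with an SD of 0.38 for the log2 differences between their probes, while the remaining pairs of arrays had 0.61 to 1.51. Some arrays stood apart from arrays of their own group. Sham 1 was nearer to ligated 1 and ligated 2 (1.05 and 0.92) than to sham 2 and sham 3 (both 1.28). Ligated 3 was nearest to ligated 2 (0.94), but it was nearer to sham 2 (0.96) than to ligated 1 (1.02). Only sham 3 was read on scan day 2. From 58.7% to 63.7% of probes were well above background on an array, and no probe was saturated. All 12 member probes were well above background on all 6 arrays, and all were tested. Precision is limited by having 3 arrays in a group.

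The label of the cells was checked against marker genes fixed in a list. Of 10 smooth muscle markers, 9 had a probe, and each was well above background on every array. Their summed signal, in multiples of the 75th percentile signal of the array, ran from 1313 to 2138 on the sham and from 487 to 1088 on the ligated arrays. All 9 had a negative change, and 2 fell past the threshold (SMTN and DES), beside 2.69% of all named genes tested. Of 10 markers of adventitial and meningeal fibroblasts, 5 were tested and 2 rose (MFAP5 and FBLN2), beside 6.22% of all named genes tested. The summed signal of these 5 markers ran from 8.78 to 11.1 in sham and from 19.9 to 43.7 in ligated samples. This marker sum was higher on each ligated array than on any sham array, which is also the direction of the collagen changes described below. DPT, CD34, FBLN2 and SLC47A1 were well above background on all 6 arrays, and MFAP5 on 2 of 3 sham and 3 of 3 ligated arrays. The share that fibroblasts have in the collagen changes was not tested. More cells of a type and more RNA per cell cannot be told apart in such samples. No marker of the other lists passed on its brightest probe, while 3 of the 5 tested S100B probes and 1 of the 3 tested SYT1 probes, both of the neuron and glia list, did. Their sums overlapped between the groups for pericytes (at most 12.8 in sham, 5.52 to 24.2 in ligated), endothelium (49.9 to 101 and 53.9 to 140), macrophages (8.91 to 19.6 and 8.56 to 32.7), neutrophils (0.939 to 3.67 and 2.30 to 5.94), lymphocytes (0.655 to 3.03 and 0.573 to 2.94) and erythroid cells (189 to 389 and 28.5 to 668). The sum over the neuron and glia markers ran from 0.420 to 0.537 in sham and from 0.208 to 0.270 in ligated samples, and the astrocyte marker GFAP was well above background on 0 arrays.

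Setting ligated against sham arteries addresses how the expression of these matrix chains differs when flow is raised. Of the 5 chains, 3 rose on the probe that stands for them, 0 fell and 2 did not pass the test. COL6A1 rose most, by 4.22-fold, COL14A1 rose 3.63-fold and COL15A1 rose 2.19-fold. COL8A1 and COL12A1 had positive changes that missed the threshold. At the level of probes 7 of 12 rose and 0 fell, where 8.35% of all 27410 tested probes passed the same test, 5.71% higher and 2.65% lower in ligated arteries. Of those 7 probes, 5 are the overlapping readings of COL15A1. The median log2 change of the 5 chains was 1.13, beside 0.01 over all 7559 named genes tested, of which 6.22% were called higher and 2.69% lower. The test was limma on log2 signals scaled to the 75th percentile of each array, two-sided, at a threshold of 0.05 for p-values adjusted by the Benjamini-Hochberg method across the tested probes. Where a chain had several probes, the 1 with the highest mean signal stands for it.

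**Figure D1:**
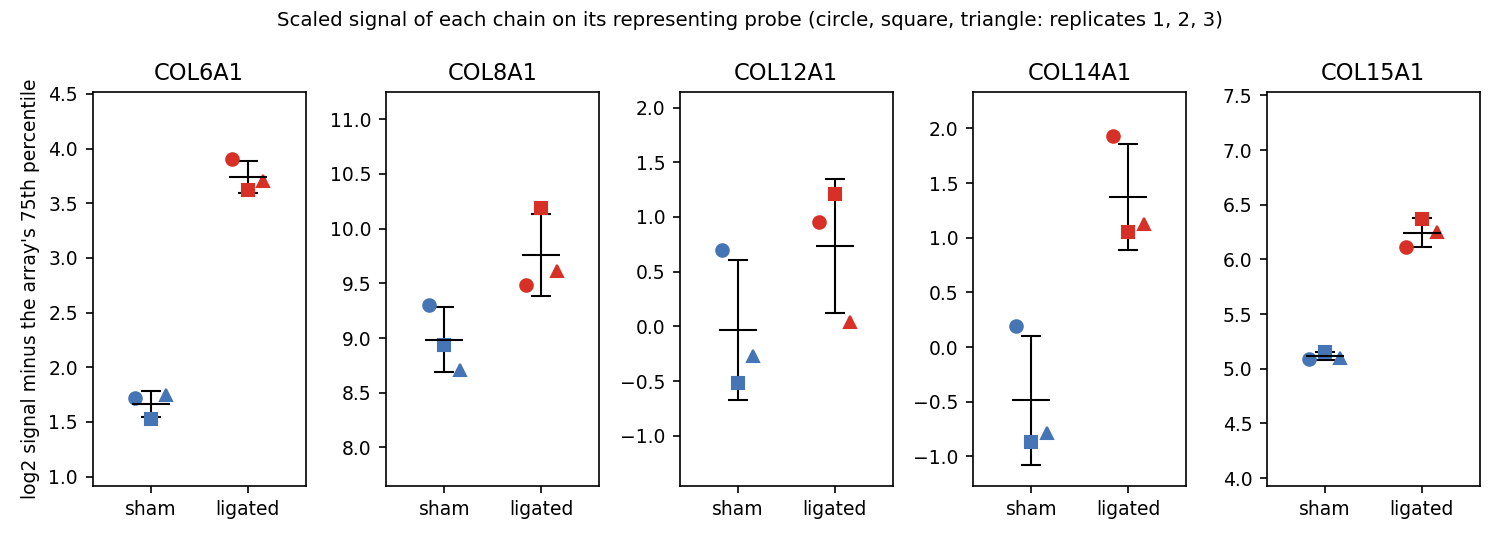
Scaled log2 signal (vertical axis, log2 signal minus the 75th percentile of the array) of each chain on its representing probe in the 3 sham (blue) and 3 ligated (red) samples; the bar and whiskers are the mean and SD, and each panel spans the same height. COL6A1 and COL15A1 separate widely with little spread, while the sham and ligated points of COL12A1 overlap.

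COL6A1 encodes the alpha 1 chain without which collagen VI heterotrimers do not form. Its scaled log2 signal was 1.72, 1.53 and 1.75 in sham samples and 3.91, 3.62 and 3.71 in ligated samples. The groups were far apart, and within a group the values stayed close together. In unscaled processed signal the same probe read 731, 598 and 753 in sham and 2718, 3091 and 2048 in ligated samples, so the separation was present before scaling. The log2 change was 2.08 ± 0.18 (SE), with a 95% interval of 1.64 to 2.52 and an adjusted p of 0.00353 (limma). It ranked 108 of the 27410 tested probes by p. COL6A1 was the only chain whose call held without each of the 6 arrays in turn, where the change was at most 2.14 and at least 2.0, and the highest adjusted p was 0.0258. It also held with sham 2 and sham 3 averaged into 1 sample (2.06, adjusted p = 0.0234, limma).

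COL14A1 encodes collagen XIV, which coats the fibrils of mature connective tissue. In sham samples its scaled log2 signal was 0.19, -0.87 and -0.79, and in ligated samples it was 1.93, 1.05 and 1.13. Sham 1 stood above the other sham arrays and ligated 1 above the other ligated arrays, yet the groups did not overlap. The log2 change was 1.86 ± 0.38 (SE), a 3.63-fold rise with a 95% interval of 1.93-fold to 6.82-fold and an adjusted p of 0.0346 (limma). The direction did not depend on any 1 array, but the call did. It held without sham 1 and ended without each of sham 2, sham 3, ligated 1, ligated 2 and ligated 3, where the highest adjusted p was 0.134 and the change ran from 1.58 to 2.02. With sham 2 and sham 3 averaged the change was 1.69 (adjusted p = 0.126, limma). Its size also depended on the background correction: the log2 change was 0.87 under the planned normexp correction, below the interval above, and 1.37 when that correction left out spots of high local background.

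COL15A1 encodes the core protein of collagen XV, whose carboxy-terminal fragment resembles endostatin. On its representing probe the scaled log2 signal was 5.09, 5.16 and 5.10 in sham and 6.11, 6.37 and 6.25 in ligated samples. These were the tightest groups among the chains, with an SD of 0.04 in sham and 0.13 in ligated samples. The log2 change was 1.13 ± 0.17 (SE), a 2.19-fold rise (95% interval 1.65-fold to 2.91-fold, adjusted p = 0.0151, limma). The 5 overlapping probes gave changes from 1.08 to 1.13, and all passed. On any array these 5 readings of 1 site spanned between 0.15 and 0.24 in log2, which measures the disagreement between overlapping probes and not the spread between samples. Leaving out sham 2, sham 3 or ligated 2 ended the call (highest adjusted p = 0.0817, limma), although the change itself stayed between 1.07 and 1.20 in all leave-outs. With sham 2 and sham 3 averaged it was 1.14 (adjusted p = 0.0758, limma).

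**Figure D2:**
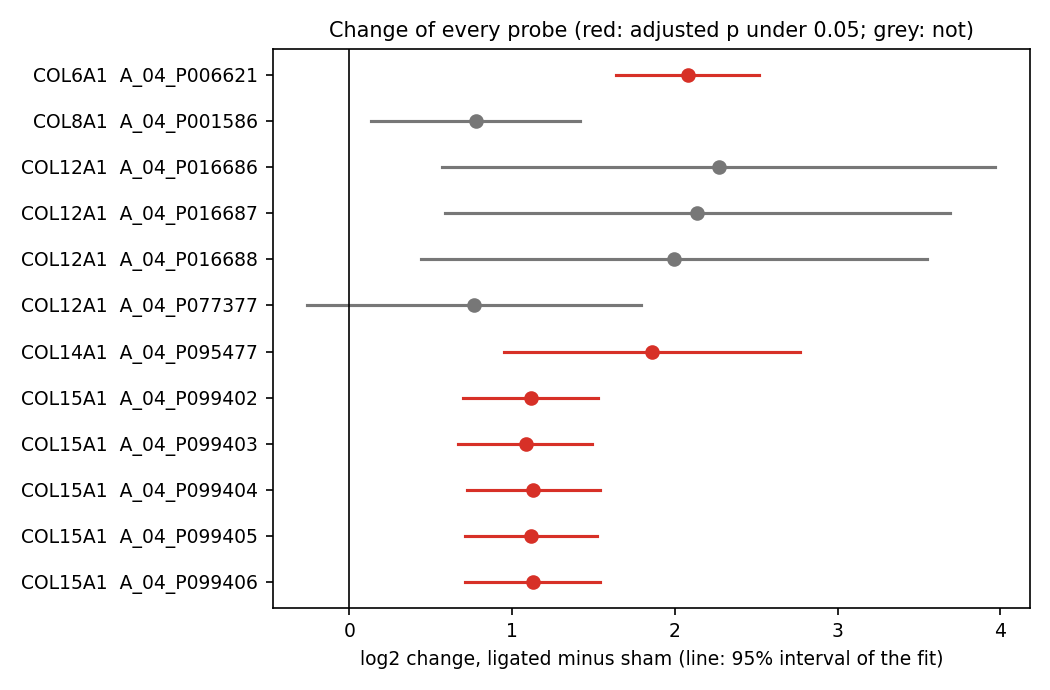
Log2 change (horizontal axis, ligated minus sham, with the 95% interval of the fit) for each of the 12 probes, in red where the adjusted p was under 0.05 and in grey otherwise. The COL15A1 probes lie almost on 1 line, the clustered COL12A1 probes are as far to the right as COL6A1 but with wide intervals, and the distant COL12A1 probe has an interval that includes 0.

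COL8A1 encodes the alpha 1 chain of collagen VIII. Its probe was bright on all arrays and below saturation, with processed signals of 140234, 101819 and 93777 in sham and 129839, 293209 and 122581 in ligated samples. After scaling these were 9.30, 8.94 and 8.71 in sham and 9.48, 10.19 and 9.61 in ligated samples. Every ligated value was above every sham value after scaling, but ligated 1 exceeded sham 1 by little, and before scaling the groups overlapped. The log2 change was 0.78 ± 0.27 (SE, 95% interval 0.13 to 1.42), which did not pass the test (adjusted p = 0.126, limma). A change as large as 2.68-fold lies within that interval. It passed in 0 of the 6 leave-outs, where the change ran from 0.56 without ligated 2 to 0.94 without sham 1.

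COL12A1 encodes collagen XII, a long fibril-associated chain that occurs in splice forms of different length. Its 4 probes did not tell the same story. The distant probe, which stands for the gene, had scaled log2 signals of 0.69, -0.52 and -0.27 in sham and 0.95, 1.21 and 0.04 in ligated samples. These groups overlapped, since sham 1 exceeded ligated 3, and the log2 change was 0.77 ± 0.43 (SE, 95% interval -0.26 to 1.79, adjusted p = 0.298, limma). It was 0.35 under the planned normexp correction and 1.24 with array weights, the only alternative on this probe under which it passed.

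The clustered COL12A1 probes were steady in sham and spread widely in ligated samples. In sham their mean scaled log2 signal was -1.34, -1.44 and -1.37, and in ligated samples it was 2.21, 0.69 and -0.67. Ligated 1 was the highest, ligated 3 was nearest to sham, and the groups did not overlap on any of these 3 probes. The SD was 0.05 in sham and 1.44 in ligated samples. Their log2 changes were 2.27, 2.14 and 1.99, with adjusted p of 0.10, 0.0931 and 0.110 (limma), so none passed. Their size rested on single ligated arrays. Without ligated 3 all 3 passed, with changes of 3.02, 2.82 and 2.68 (highest adjusted p = 0.0294, limma), and without ligated 1 none passed, with changes of 1.49, 1.43 and 1.28. Under the planned normexp background correction the changes were 1.17, 1.30 and 1.13. The marker sums also differed between the ligated arrays. On ligated 1, ligated 2 and ligated 3 the sum was 24.2, 14.7 and 5.52 for pericytes, 43.7, 19.9 and 26.3 for fibroblasts, 8.56, 12.8 and 32.7 for macrophages and 28.5, 31.4 and 668 for erythroid cells. On the same arrays it was 795, 1088 and 487 for smooth muscle, 0.573, 0.718 and 2.94 for lymphocytes and 0.270, 0.235 and 0.208 for neurons and glia. The pericyte sum and the neuron and glia sum had the order of these probes. The macrophage, erythroid and lymphocyte sums had the opposite order, and the smooth muscle, fibroblast, endothelium and neutrophil sums had neither. In the lists whose sums had the same or the opposite order, some markers did not follow the sum. These were ABCC9 (1.52, 2.67 and -0.56 in scaled log2) and KCNJ8 (-1.49, -1.26 and -2.55) of the pericytes, S100B of the neurons and glia and ALAS2 of the erythroid cells. In the lists whose sums had neither order, some markers had the order of the clustered COL12A1 probes. They were DPT (4.03, 2.24 and 0.51) and MFAP5 (0.91, -0.26 and -0.47) of the fibroblasts and SYNPO2 of the smooth muscle. SLC47A1 of the fibroblasts and S100A8 of the neutrophils had the opposite order, and the other tested markers of those lists had neither. The part of these cells in the COL12A1 values was not tested.

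The disagreement between the COL12A1 sites can be read within each array, where scaling cancels. The clustered mean minus the distant probe was -2.04, -0.92 and -1.11 in sham and 1.26, -0.51 and -0.71 in ligated samples. The difference was higher on each ligated array than on any sham array, by 1.37 on average, with ligated 1 far above the other ligated arrays. An exact two-sided permutation test gave p = 0.1, the smallest that 3 against 3 samples can give. The split into clustered and distant probes was not among the planned tests, so this p is a description only. With the mean of all 4 probes in place of the brightest, the change of COL12A1 was 1.79 (adjusted p = 0.103, limma), more than 1.5 times the value on the distant probe. The choice of probe therefore set the size reported for this chain, and neither choice passed the test. In all, the groups did not overlap, with ligated higher, for 11 of the 12 member probes, the distant COL12A1 probe being the exception. The same held for 17.6% of all tested probes, and 17.1% were lower in ligated samples without overlap. Of the 11 member probes, 5 are overlapping readings of COL15A1 and 3 are the clustered COL12A1 probes, so they do not count as separate measurements.

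**Figure D3:**
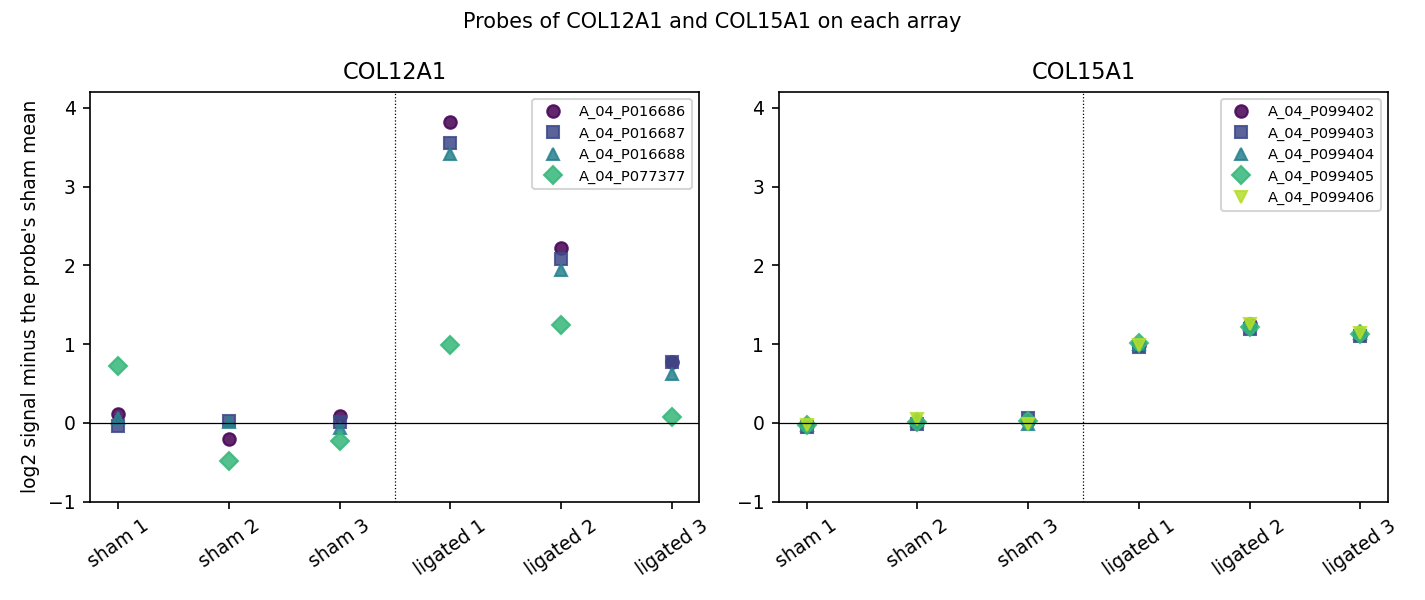
Log2 signal minus the probe's own sham mean (vertical axis) for every probe of COL12A1 and COL15A1 on each of the 6 arrays (horizontal axis). The clustered COL12A1 probes move together and are highest on ligated 1, the distant probe A_04_P077377 takes another course, and the 5 COL15A1 probes coincide on every array.

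Whether the chains differed from each other in their change was examined within arrays, for all 10 pairs of chains on their representing probes. COL15A1 had a smaller change than COL6A1 on these arrays: the log2 difference COL15A1 minus COL6A1 was 3.45 ± 0.15 in sham and 2.5 ± 0.28 in ligated samples (SD, n = 3), a shift of -0.95 (exact permutation p = 0.1). COL8A1 also had a smaller change than COL6A1, with a shift of 1.30 ± 0.35 (SE) in COL6A1 minus COL8A1. COL12A1 on its distant probe shifted by -1.31 against COL6A1 and by -1.09 against COL14A1. These 4 pairs had groups that did not overlap and reached the smallest p that the design allows (0.1), which became 0.25 after adjustment over the 10 pairs, so no pair passed. The shifts of COL12A1 against COL6A1 and COL14A1 depend on the probe. The mean of the clustered COL12A1 probes changed by 2.13, beside 2.08 for COL6A1 and 1.86 for COL14A1. COL14A1 minus COL6A1 shifted by -0.22 ± 0.37 (SE) and COL12A1 minus COL8A1, on the distant probe, by -0.01 ± 0.39. The errors of these last pairs leave room for differences of either sign.

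Related collagens outside the rule were read from a list of 14 other network, short-chain, fibril-associated and multiplexin chains. Of these, 8 had a probe and 5 were tested, of which 3 rose, 0 fell and 2 did not pass. Over all named genes tested, 6.22% were called higher and 2.69% lower. COL16A1, a fibril-associated collagen, had scaled log2 signals of -0.73 ± 0.08 in sham and 1.26 ± 0.27 in ligated samples (SD, n = 3, adjusted p = 0.00504, limma). COL9A3, a chain of the fibril-associated collagen IX of cartilage, rose by 2.32 ± 0.24 (SE). COL8A2, the partner of COL8A1 in collagen VIII, rose by 2.05 ± 0.23 (SE). Its size is less certain, since only 2 of 3 sham arrays had this probe well above background. All 3 calls held in each of the 6 leave-outs. The median change of the 5 tested genes was 2.05, beside 0.01 over all named genes, but it was 0.81 under the planned normexp correction, where 0 passed, and 0.65 without spots of high local background, where 3 passed. The alpha 6 chain of collagen VI, COL6A6, singled out after its values were seen, had a change of 2.23 on its brightest probe that did not pass (adjusted p = 0.141, limma), while 3 of its 4 tested probes did. In sham that brightest probe cleared background on 1 of 3 arrays, and the other COL6A6 probes had lower mean signals. A probe can meet the filter through the ligated arrays alone, so the calls of those dimmer probes are not taken as support. COL6A5, another collagen VI chain, was well above background on 0 arrays and was not tested.

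Fibrillar collagens, the cores on which collagens XII and XIV sit, were mostly higher as well. Of 8 tested, 6 rose, 0 fell and 2 did not pass, beside 6.22% of all named genes called higher and 2.69% lower. Their median change was 1.72. The count that rose was 4 without sham 3, 5 without sham 2 and 5 with both averaged. COL1A1, a chain of collagen I, rose by 3.02 ± 0.28 (SE), and COL5A1 and COL5A2, chains of the collagen V that nucleates fibrils, by 1.89 ± 0.17 and 1.70 ± 0.18. COL5A3, also among the 6 and named after its values were seen, was well above background on 0 of the 3 sham arrays, so no size is given for it. Among the 7 fibrillar genes above background on all 6 arrays, 5 rose, with a median change of 1.70. COL2A1, named in the same way, did not pass on its brightest probe (adjusted p = 0.2345, limma), while 4 of its 6 tested probes did.

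Among 11 tested matrix partners that bind collagen VI or the fibril surface, 4 rose, 0 fell and 7 did not pass. Their median change was 0.36 and moved with the processing, from 0.16 under median centring to 0.80 after quantile normalization and 1.00 for the 10 genes above background on all arrays. It was 0.23 without ligated 2 and 0.61 without ligated 3. Counts and medians here use the brightest probe of each gene. DCN, named after its values were seen, did not pass on that probe (adjusted p = 0.325, limma), while 4 of its 6 tested probes did. MATN2, a matrilin that links collagen VI to other matrix proteins, rose from 0.33 ± 0.24 to 2.85 ± 0.28 (SD, n = 3, adjusted p = 0.00374, limma). LUM, the fibril-bound proteoglycan lumican, rose by 2.38 ± 0.18 (SE) and the adhesive glycoprotein FN1 by 2.41 ± 0.24. The calls of these 3 genes held in each leave-out. Of 9 tested collagen receptors, 1 rose, 1 fell and 7 did not pass. Over all named genes tested, 6.22% were called higher and 2.69% lower, so these few calls say little about the receptors as a group. The sign of their median was set by single arrays: it was -0.01 with all arrays, -0.28 without ligated 1 and 0.32 without ligated 3, and -0.21 under median centring. ANTXR2, a cell surface receptor that binds collagen VI, fell from 1.00 ± 0.08 to -0.21 ± 0.22 (SD, n = 3), a log2 change of -1.21 ± 0.19 (SE, adjusted p = 0.0168, limma). The ANTXR2 call was lost when sham 2, sham 3 or ligated 2 was left out (highest adjusted p = 0.0875, limma). ITGA2, the collagen-binding alpha 2 integrin, rose by 2.66 ± 0.55 (SE), a call that ended in all 6 leave-outs (highest adjusted p = 0.0989, limma). ITGB1, the beta subunit shared by the collagen-binding integrins, had a change of -0.32 ± 0.23 (SE, adjusted p = 0.410, limma).

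Genes that fold, modify and trim procollagen were higher in part. Of 10 tested, 7 rose, 0 fell and 3 did not pass, beside 6.22% of all named genes called higher and 2.69% lower. Their median change was 1.15. The median was 0.64 under the planned normexp correction. PCOLCE2 and PCOLCE, enhancers of the enzyme that removes the carboxy-terminal propeptide, rose by 2.39 ± 0.24 and 2.09 ± 0.28 (SE). BMP1, that enzyme, rose by 1.32 ± 0.17 (SE). The PCOLCE2 call held in each leave-out, that of PCOLCE ended without sham 3 (adjusted p = 0.0527, limma) and that of BMP1 without sham 2 and without sham 3 (highest adjusted p = 0.0581, limma). Of this list 7 rose with all arrays, but 1 when sham 3 was left out, 2 when sham 2 was left out or both were averaged, and 4 when ligated 1 or ligated 2 was left out.

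**Figure D4:**
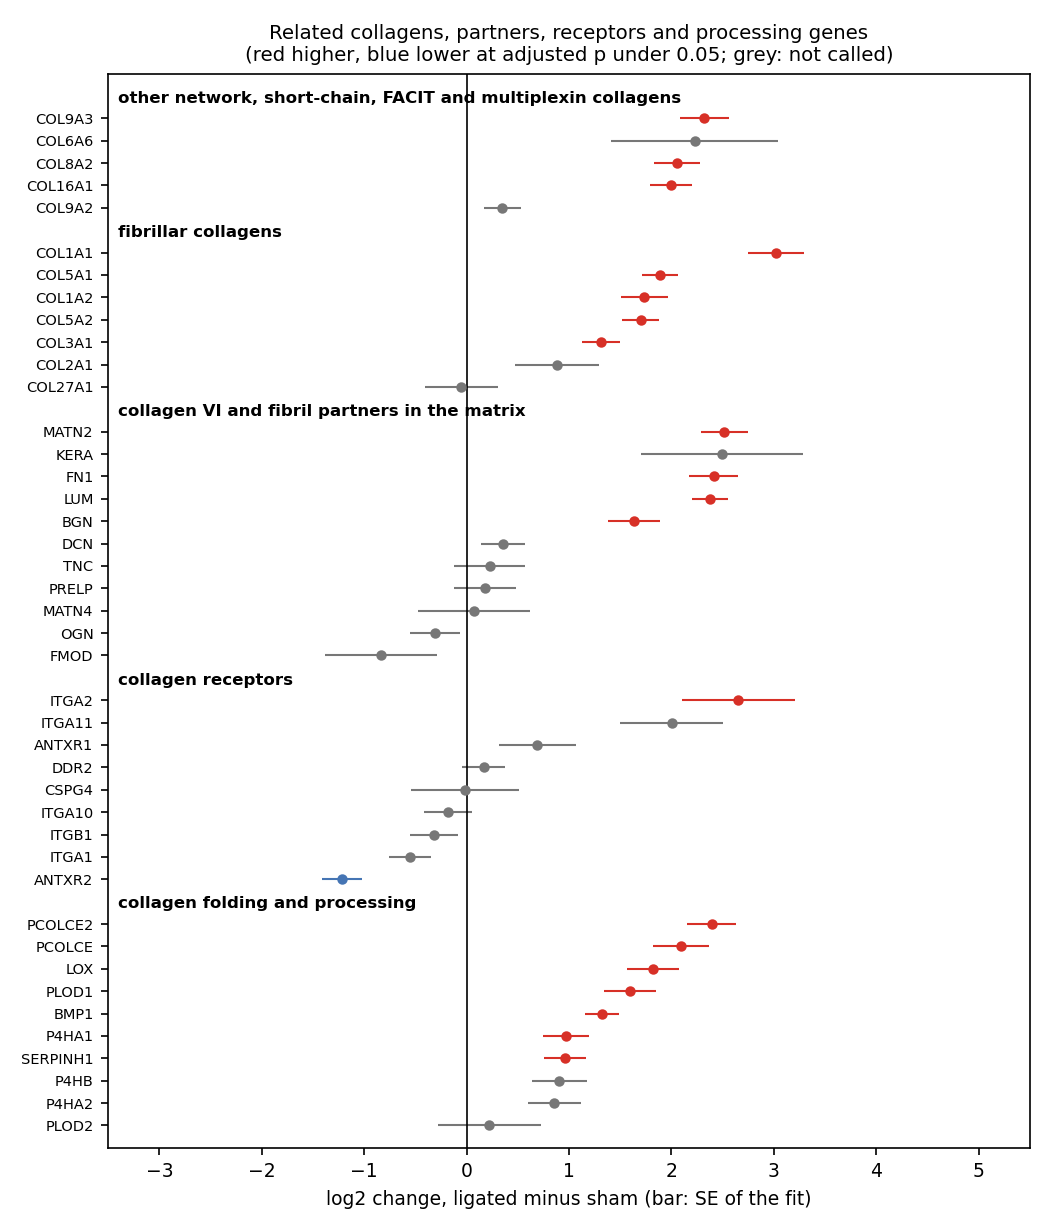
Log2 change (horizontal axis, ligated minus sham, bars are the SE of the fit) of the tested genes of the related lists, each on its brightest probe, in red or blue where a gene rose or fell at an adjusted p under 0.05. COL5A3 is left out because it was not above background in sham; most collagens and processing genes lie to the right of 0, while the receptors lie on both sides.

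For each chain the genes with the most similar pattern over the 6 arrays were found as those with the smallest root mean square distance between scaled log2 profiles, each centred on its own mean, among 7549 named genes. For COL6A1 these were FANCI, a DNA repair protein (distance 0.13), the cytokine gene IL18 (0.17) and TSPOAP1 (0.17). For COL15A1 they were PRDX4, a peroxiredoxin of the endoplasmic reticulum (0.07), MAGED1 (0.07) and the mitochondrial carbonic anhydrase CA5B (0.09). The profile of COL14A1 was nearest to those of SMOC2, a secreted matricellular protein (0.14), BRINP1 (0.15) and PTHLH, which encodes parathyroid hormone-related protein (0.19). COL8A1 was nearest to the cell cycle inhibitor CDKN2C (0.08), the kinase scaffold MAPK8IP1 (0.08) and the potassium channel KCNK1 (0.11). On its distant probe COL12A1 was nearest to TGFB1, the growth factor TGF-beta 1 (0.11), the phosphatase PTPRA (0.12) and ELMO2 (0.12). On the brightest clustered probe, a choice made after its values were seen, it was nearest to the ion cotransporter SLC12A2 (0.11), the kinase STK4 (0.16) and the neurotrophin BDNF (0.20). The nearest genes of the separate COL12A1 sites thus had no gene in common. Some of the nearest genes were dim in sham samples. In scaled log2 FANCI read -4.98, -5.18 and -4.88 there, TSPOAP1 -4.68, -4.65 and -5.01, and BRINP1 -3.75, -4.64 and -4.83. Values this low may lie near background, so these matches are less certain. All distances are descriptions over 6 arrays that share slides and scans.

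**Figure D5:**
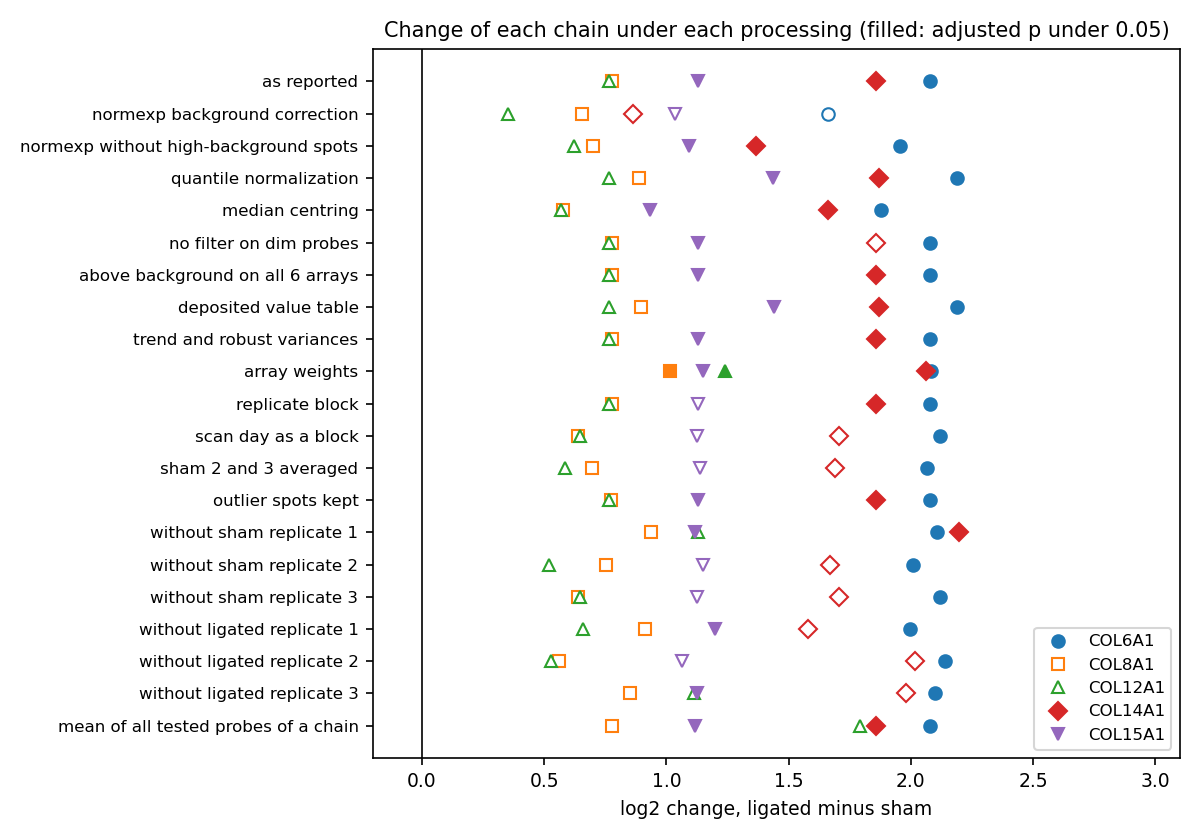
Log2 change (horizontal axis, ligated minus sham) of each chain in the analysis reported and under each alternative processing (rows), filled where the adjusted p was under 0.05. All 100 alternative values lie to the right of 0, but several rows repeat the reported change by construction. COL6A1 is filled in all rows but the planned normexp correction, and COL14A1 and COL15A1 lose their fill in several rows.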

How the data were processed

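The 6 arrays analysed were 3 sham and 3 ligated. Per the file headers and the submitters' processing notes, scans were read with Agilent Feature Extraction 10.7, and the deposited processed signal is an intensity from which local background and spatial trend had been removed. The deposited spot marks are flags of the kind other (0 or 1). A deposited table of log2 values by the authors, used as an alternative, has a normalization not given in the sources used here.

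Spots marked as outliers were left out, spots of a probe were averaged in log2, and each array was scaled by subtracting its 75th percentile. Tests took in the 27410 of 43603 probes that cleared background on 3 or more arrays, with limma 3.58.1 in R 4.3.3, checked on simulated data. The model had 4 residual degrees of freedom before moderation. Genes other than the members were named through a RefSeq table of assembly mOryCun1.1, which gave 22565 probes a symbol.

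The members, lists and tests were chosen with earlier results of these data known. Named genes were the member chains, up to 3 genes of each list and the 3 nearest profiles of each chain. List genes were those that passed with the smallest p, filled up with the brightest. The planned comparison among collagen VI chains could not be made with 1 chain on the array, and all pairs of chains were compared in its place. Alternatives covered background correction, scaling, filters, variance models, blocks and each array left out.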

Additional observations from a re-analysis of the deposited data

How the results depend on the processing

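All 5 chains kept a positive change in all 100 alternative values, and the calls did not. These values are not independent. Altering the filter on dim probes, using trend and robust variances or adding the replicate block leaves the change itself as reported. For chains with a single probe the mean over probes does the same. The planned normexp background correction ended every call: 0 probes passed in limma (615 had an unadjusted p under 0.05), 0 member probes and 0 chains, and the median over all probes became 0.21. When the same correction was run without spots of high local background (added after seeing the data), 7 member probes and 3 chains passed. The number of probes that passed was 1524 with no filter on dim probes, 6098 with array weights, 1295 with the replicate block, 552 with scan day as a block, 595 with sham 2 and 3 averaged, and 552 to 2269 without 1 array. Member probes that passed numbered 12 with array weights, 2 with the replicate block, 1 with scan day as a block, 1 with sham 2 and 3 averaged, and 1 to 9 without 1 array. The number of chains was 5 with array weights, 1 with scan day as a block, 1 with sham 2 and 3 averaged, and 1 to 3 without 1 array. The cause was not tested, except that scan day as a block sets sham 3 apart and so equals leaving it out. Same-numbered arrays deviated from their group means with correlations of 0.43, -0.57 and 0.58. With so few arrays, values of both signs cannot settle whether the numbers pair the samples. The replicate block ended the COL15A1 call (adjusted p = 0.0620, limma). It kept those of COL6A1 and COL14A1 (adjusted p = 0.0177 and 0.0202, limma). Under median centring the median over all probes was -0.19, which took the share of calls that were higher from 68.3% to 52.2%, while 3 chains still passed. That share was 56.4% with the second normexp setting. Under median centring 5 member probes passed, and the COL15A1 call turned on which overlapping probe was used. Its representing probe passed (adjusted p = 0.0479, limma), while A_04_P099402 and A_04_P099403 did not (adjusted p = 0.0507 and 0.054, limma). Without the filter the COL14A1 call ended (adjusted p = 0.0553, limma).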
